A study of Mus musculus with 5 samples.

Results

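Interferon-stimulated genes were followed in primary adipocytes from mice with a knockout of the arginine methyltransferase gene Prmt1 in adipocytes, in which part of the Prmt1 transcript was still measured. They are 35 genes of the antiviral response, chosen by gene symbol, out of 24531 genes in the table, and all 35 had enough counts to be tested. The adipocytes came from the epididymal fat of C57BL/6N mice kept on a high-fat diet for 12 weeks, and poly-A RNA was sequenced. Prmt1 FKO libraries (n = 2) are those labelled as this adipocyte-specific knockout. Prmt1 f/f libraries (n = 3) are titled as floxed and carry the genotype label WT. Both groups had the same strain, depot and diet. The sources used here do not give the Cre driver, the exons removed or the age of the mice, nor do they state that each library came from a separate animal, so the p-values may measure technical spread only.

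Interferons are signalling proteins, and those of type I are released by cells that detect foreign nucleic acid. Type I interferons act through JAK kinases on a complex that holds STAT2 and IRF9 and binds a short promoter sequence, the interferon-stimulated response element. Interferon gamma acts through the gamma-activated site, and it can induce many of the same genes through IRF1. In fat tissue, macrophages and other immune cells respond to interferons as well as adipocytes, so a bulk library can hold such transcripts from several cell types.

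Promoters of 4 members are shown to give the element in its context, 1 from each of 4 roles, each the member with the smallest p among those of its role that hold the element. Each is the RefSeq window of 300 bases on GRCm38.p6, from 250 bases before the start that RefSeq gives to 50 after it, written 5′ to 3′ on the strand of the gene. Capitals mark the core of the element, GAAA, any 2 bases, then GAAA, read on either strand. The first match began 53 bases before this RefSeq start in Gbp7, 20 in Oas1a, 130 in Bst2 and 222 in Stat2, and the deposited table can place the gene start elsewhere. In Oas1a and Bst2 a second match overlapped the first.
Gbp7, chr3:142530086-142530385, plus strand: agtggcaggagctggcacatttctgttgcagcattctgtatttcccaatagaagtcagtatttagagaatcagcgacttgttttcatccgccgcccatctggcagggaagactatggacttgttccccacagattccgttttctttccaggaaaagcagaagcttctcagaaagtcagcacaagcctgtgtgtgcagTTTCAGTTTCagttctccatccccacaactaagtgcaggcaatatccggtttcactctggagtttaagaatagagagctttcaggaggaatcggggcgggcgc
Oas1a, chr5:120907476-120907775, minus strand: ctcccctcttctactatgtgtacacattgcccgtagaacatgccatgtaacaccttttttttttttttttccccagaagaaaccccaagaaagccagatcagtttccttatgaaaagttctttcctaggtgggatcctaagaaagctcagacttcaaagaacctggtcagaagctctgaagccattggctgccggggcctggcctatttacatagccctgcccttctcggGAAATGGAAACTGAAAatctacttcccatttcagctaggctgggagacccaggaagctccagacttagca
Bst2, chr8:71537423-71537722, minus strand: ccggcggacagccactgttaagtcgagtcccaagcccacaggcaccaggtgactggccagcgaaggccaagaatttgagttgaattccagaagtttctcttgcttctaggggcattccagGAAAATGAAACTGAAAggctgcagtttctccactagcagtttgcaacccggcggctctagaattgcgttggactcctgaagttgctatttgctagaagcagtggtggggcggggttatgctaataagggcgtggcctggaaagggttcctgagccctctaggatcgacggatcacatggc
Stat2, chr10:128270248-128270547, plus strand: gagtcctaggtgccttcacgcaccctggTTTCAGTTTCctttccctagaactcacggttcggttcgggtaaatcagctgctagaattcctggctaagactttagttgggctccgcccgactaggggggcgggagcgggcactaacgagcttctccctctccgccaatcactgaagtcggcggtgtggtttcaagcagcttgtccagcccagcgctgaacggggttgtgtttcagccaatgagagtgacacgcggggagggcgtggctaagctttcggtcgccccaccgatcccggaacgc

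Of the 35 members, 25 had a window in the promoter table, and 14 of these 25 (56%) held the core of the element, against 3.99% of 27025 genes in that table. The core of the gamma-activated site, TTCNNNGAA, was in 7 of the 25 (28%), against 9.55% of all genes in the table. Of the members called below, Gbp7 held both cores, Ifi35 held the gamma-activated site alone and Dtx3l held neither. Parp9, Oas2 and Ifi27 had no window. A match describes letters in a window and does not show binding.

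Estimated counts summed to 45665542 and 49981062 in the FKO libraries and to between 43580154 and 57016997 in the f/f libraries. Levels are given as CPM, which are counts relative to library size after TMM scaling, and a gene with no count could still have up to 3 counts, or 0.0469 to 0.0713 CPM depending on the library. Prmt1 itself was measured at 21.0 and 19.3 CPM in FKO replicates 1 and 2, against 34.1, 29.4 and 32.3 CPM in f/f replicates 1 to 3 (log2 fold change −0.66 ± 0.14 SE, edgeR adjusted p = 0.0171). That call ended without FKO replicate 1 (edgeR adjusted p = 0.115) or FKO replicate 2 (edgeR adjusted p = 0.161). Over all 14492 tested genes, 11.9% were called higher and 13.4% lower in FKO. Of 15 adipocyte markers, 6 were higher in FKO and 0 lower. Of 19 tested macrophage markers, 0 were higher and 12 were lower, with a median log2 fold change of −1.38. The summed macrophage markers came to 604 and 837 CPM in FKO, against 1666, 1343 and 2320 CPM in f/f, and Clec4f, a Kupffer cell marker, had no count in any library. Mesothelial markers were lower in 11 of 11, with sums of 28.5 and 18.1 CPM in FKO and 125.1, 59.5 and 99.8 CPM in f/f. Progenitor and fibroblast markers were lower in 5 of 14, while 0 of 10 endothelial markers were called. In bulk RNA, fewer cells of a type and less RNA per cell cannot be told apart.

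The interferon-stimulated genes did not move together in FKO adipocytes. By edgeR's quasi-likelihood test over all genes, 4 of 35 rose (Gbp7, Dtx3l, Ifi35 and Parp9) and 2 fell (Oas2 and Ifi27). The rises were 11.4% of the members, against 11.9% of 14492 tested genes, and the falls were 5.71%, against 13.4%. In both directions together 17.1% of the members were called, against 25.4% of all genes tested. The share of members called higher was thus near the background, and the share called lower was below it. The fitted log2 fold change was above 0 in 14 members and below 0 in 21. The median was −0.19 for the members and −0.05 for all genes tested, while the median size of the change was 0.42 and 0.44 on the log2 scale.

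Both FKO libraries lay above all f/f libraries in 6 members (17.1%), against 28.6% of all genes, and below them in 10 members (28.6%), against 30.5% of all genes. In the other 19 members the groups overlapped. Scaling by upper-quartile factors, by library size alone, or the use of FPKM moved the median of all genes to −0.17, −0.27 and −0.24. Of all calls, 47.1% were rises with TMM, against 34.98%, 26.1% and 26.9% in these settings. Each of them left 2 members that rose and 4 that fell. The member median relative to the median of all genes stayed between −0.16 and −0.14 over these scalings and TMM. Without FKO replicate 1 there were 2 rises and 0 falls, without FKO replicate 2 there was 1 rise and there were 0 falls, and without f/f replicate 2 there were 2 rises and 5 falls.

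**Figure D1:**
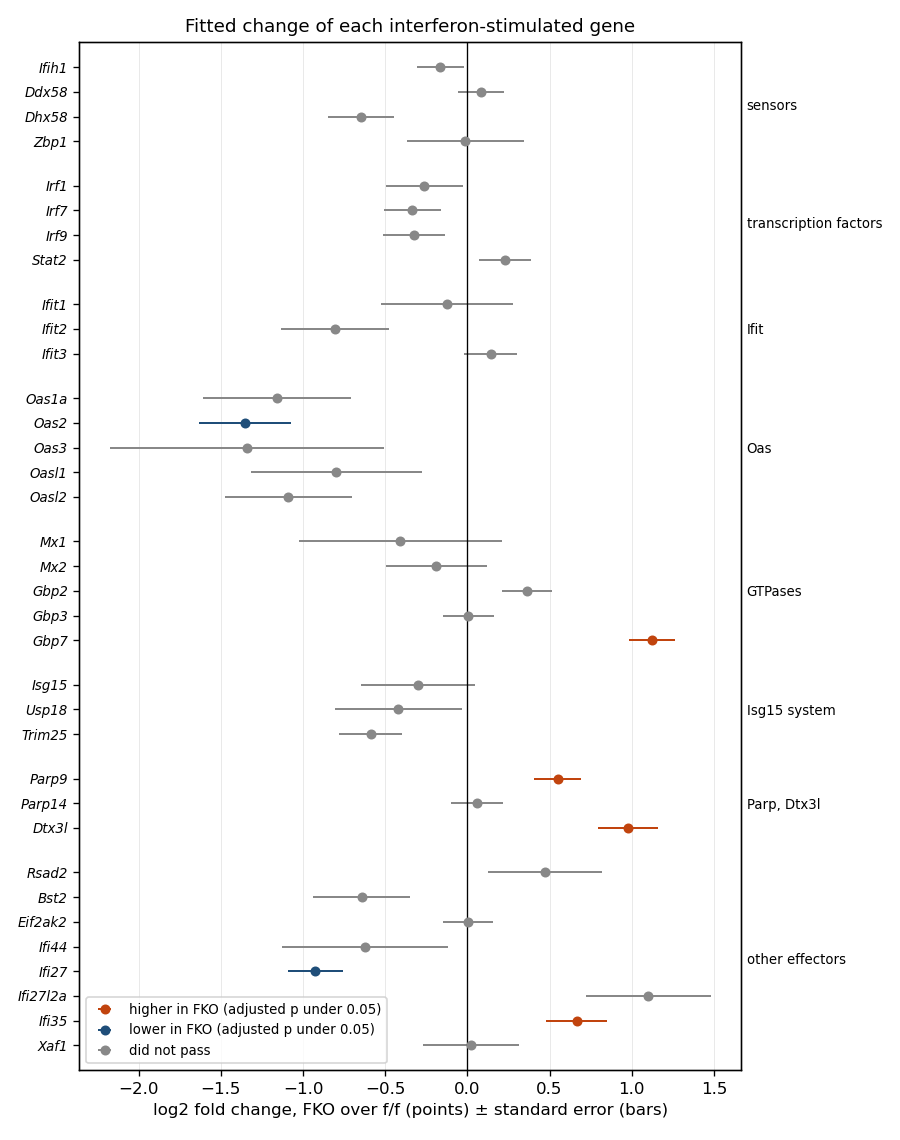
Fitted log2 fold change of FKO over f/f for each of the 35 interferon-stimulated genes by role, with bars of 1 standard error, n = 2 and 3 libraries. The 4 members that rose and the 2 that fell are coloured, and the 29 others lie between −1.34 and 1.10.

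With 3 to 8 genes per role, the counts of calls by role are descriptions only, beside 25.4% called over all genes tested. The sensors, which detect viral RNA or DNA inside the cell, gave 0 calls in 4, with a median log2 fold change of −0.09. Ifih1, which encodes the long double-stranded RNA sensor MDA5, measured 28.0 and 26.7 CPM in FKO, against 31.7, 27.5 and 33.0 CPM in f/f. Ddx58, which encodes RIG-I, the sensor of RNA ends, measured 29.4 and 30.3 CPM in FKO, against 26.8, 26.5 and 31.3 CPM in f/f. The groups overlapped in Ddx58 and in Zbp1, a sensor of Z-form nucleic acid that measured 2.44 and 3.92 CPM in FKO and 2.68, 2.53 and 4.39 CPM in f/f. In Ifih1 the higher FKO library stood above the lowest f/f library.

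Dhx58 was the sensor gene nearest to the threshold. It encodes LGP2, which modulates the other RNA sensors, and measured 5.09 and 4.30 CPM in FKO, against 6.67, 7.59 and 7.81 CPM in f/f. Both FKO libraries were below every f/f library, with a log2 fold change of −0.65 ± 0.20 and an edgeR adjusted p of 0.0533. Over the alternatives its adjusted p ranged from 0.0243 to 0.306, and 5 of 14 put it past 0.05.

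None of the 4 members that encode transcription factors was called, and their median log2 fold change was −0.29. Irf1, a factor induced by interferon gamma, measured 222 and 161 CPM in FKO, against 240.0, 176 and 274 CPM in f/f. Irf7, which amplifies type I interferon production, measured 14.3 and 11.3 CPM in FKO, against 15.8, 14.8 and 18.0 CPM in f/f. Irf9, the DNA-binding part of the type I complex, measured 12.4 and 13.2 CPM in FKO, against 15.6, 13.3 and 19.1 CPM in f/f. Both FKO libraries were below all f/f libraries in Irf7 and Irf9, with log2 fold changes of −0.34 ± 0.17 and −0.33 ± 0.19 that did not pass (edgeR adjusted p = 0.195 and 0.24). Stat2, another part of that complex, measured 32.2 and 28.0 CPM in FKO and 23.2, 24.7 and 29.2 CPM in f/f, and the groups overlapped.

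The Ifit genes encode proteins that bind viral RNA and block its translation, and 0 of the 3 were called. Ifit1 measured 2.67 and 5.49 CPM in FKO, against 4.12, 3.13 and 6.06 CPM in f/f. Ifit2 measured 4.45 and 6.42 CPM in FKO, against 6.47, 8.98 and 13.0 CPM in f/f. Ifit3 measured 18.7 and 23.9 CPM in FKO, against 18.8, 18.2 and 21.0 CPM in f/f. The 2 FKO libraries of Ifit1 stood about as far apart as the f/f libraries, and Ifit2 alone showed no overlap between groups (log2 fold change −0.80 ± 0.33, edgeR adjusted p = 0.113). Ifit3 has a near-identical neighbour, Ifit3b, to which counts can be split, and the 2 summed gave a log2 fold change of 0.39 ± 0.15 (edgeR adjusted p = 0.0928). Ifit3b alone, looked at after its value was seen, rose, with 15.3 and 14.2 CPM in FKO, against 6.92, 7.93 and 9.70 CPM in f/f (log2 fold change 0.85 ± 0.19, edgeR adjusted p = 0.0192). That call ended in 5 of 14 alternatives, among them those without FKO replicate 1 (edgeR adjusted p = 0.136), FKO replicate 2 (0.0904) and f/f replicate 2 (0.0508), within a range of 0.00168 to 0.136.

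The Oas family held 1 of the 2 members that fell. OAS enzymes sense double-stranded RNA and make the oligoadenylates that switch on RNase L. Oas2 (chr5:120730333-120749848, mm10) measured 3.13 and 2.78 CPM in FKO, against 7.58, 5.58 and 9.51 CPM in f/f. Its mean was 2.96 ± 0.25 CPM in FKO (SD, n = 2) and 7.56 ± 1.97 CPM in f/f (SD, n = 3), which was 2.55-fold lower in FKO by the fit (log2 fold change −1.35 ± 0.28, edgeR adjusted p = 0.0155). The FKO libraries lay close together and below every f/f library. The call ended without FKO replicate 1 (edgeR adjusted p = 0.0851) or FKO replicate 2 (edgeR adjusted p = 0.1). Across the alternatives, edgeR and the other tools gave it adjusted p between 0.000205 and 0.1.

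The other 4 Oas members had log2 fold changes between −1.34 and −0.80 and none passed, and the family median was −1.16. Oas1a measured 2.29 and 2.16 CPM in FKO, against 4.50, 2.64 and 7.75 CPM in f/f. Oasl2 measured 4.09 and 4.33 CPM in FKO, against 8.27, 5.22 and 13.4 CPM in f/f. Both had the FKO libraries below all f/f libraries, and the f/f libraries spread over more than the distance between the groups (edgeR adjusted p = 0.101 for Oas1a and 0.0785 for Oasl2). Without f/f replicate 2, the lowest f/f library in both, the adjusted p by edgeR was 0.0362 for Oas1a and 0.0284 for Oasl2, within ranges over all alternatives of 0.0362 to 0.305 and 0.0265 to 0.274. Without f/f replicate 3, the highest f/f library in both, the log2 fold changes were −0.68 in Oas1a and −0.68 in Oasl2. These compare with −1.16 and −1.09 with all 5 libraries, and neither passed (edgeR adjusted p = 0.194 and 0.129). Oas1a summed with its close copy Oas1g gave −1.39 ± 0.44 on the log2 scale (edgeR adjusted p = 0.058). Oas1g alone, looked at after its value was seen, fell, with 0.289 and 0.309 CPM in FKO, against 1.66, 0.867 and 2.37 CPM in f/f (log2 fold change −2.44 ± 0.55, edgeR adjusted p = 0.0202). That call ended in 3 of 14 alternatives, among them those without FKO replicate 1 (edgeR adjusted p = 0.113) and FKO replicate 2 (0.0991), within a range of 0.000716 to 0.113.

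Oas3 and Oasl1 were scarce. Oas3 measured 0.200 and 0.475 CPM in FKO, against 0.643, 0.272 and 1.64 CPM in f/f. Oasl1, a homolog that in mice represses Irf7 translation, measured 1.18 and 1.43 CPM in FKO, against 1.82, 1.17 and 3.78 CPM in f/f. The groups overlapped in both, and f/f replicate 3 was the highest library in all 5 Oas members. Without f/f replicate 3 the log2 fold changes were −0.43 in Oas3 and −0.20 in Oasl1, against −1.34 and −0.80 with all 5 libraries. Oas2 was then at −1.15 and kept its call (edgeR adjusted p = 0.0273).

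**Figure D2:**
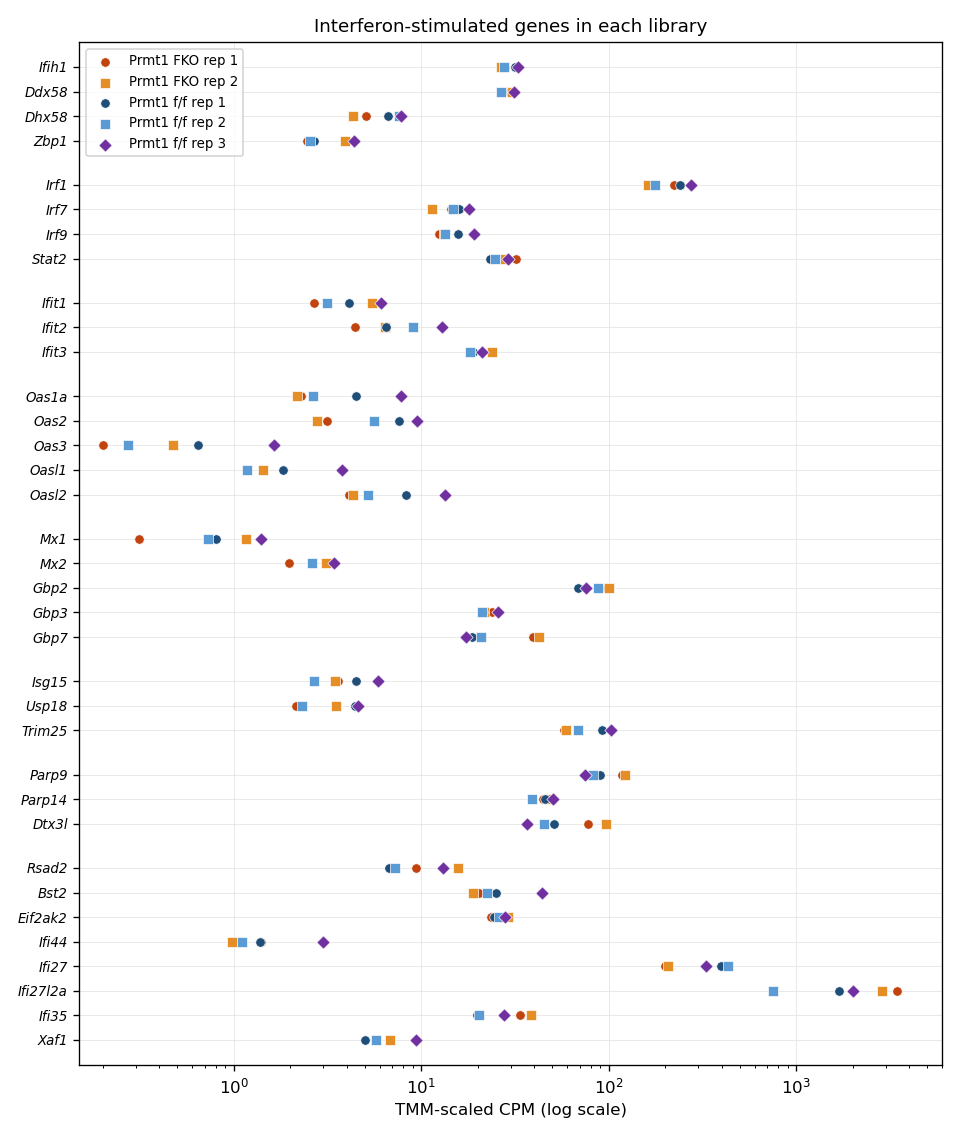
TMM-scaled CPM (log axis) of each interferon-stimulated gene in the 2 FKO and 3 f/f libraries, ordered by role. In the Oas rows f/f replicate 3 lies farthest to the right, and in the rows of Gbp7, Dtx3l, Ifi35 and Parp9 both FKO libraries lie right of every f/f library.

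Among the interferon-induced GTPases, which attack viruses and vacuoles that hold pathogens, 1 of 5 rose, against 11.9% of all genes tested. Gbp7, a guanylate-binding protein (chr3:142530336-142550151, mm10; its promoter is the first sequence above), measured 39.6 and 42.6 CPM in FKO, against 18.7, 20.7 and 17.2 CPM in f/f. Its mean was 41.1 ± 2.13 CPM in FKO (SD, n = 2) and 18.9 ± 1.75 CPM in f/f (SD, n = 3), a 2.18-fold rise by the fit (log2 fold change 1.12 ± 0.14, edgeR adjusted p = 0.00341). It was the 1 called member whose call held in all 14 alternatives, with adjusted p of at most 0.0388. Gbp2, a neighbour on chromosome 3, measured 97.7 and 100.4 CPM in FKO, against 68.3, 87.5 and 75.3 CPM in f/f. Both FKO libraries stood above every f/f library, but the log2 fold change of 0.36 ± 0.15 did not pass (edgeR adjusted p = 0.122).

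Gbp3 measured 23.8 and 21.6 CPM in FKO, against 21.3, 21.0 and 25.5 CPM in f/f. Guanylate-binding protein genes resemble one another, so the split of counts among them is uncertain. Mx1 measured 0.311 and 1.16 CPM in FKO, against 0.798, 0.731 and 1.39 CPM in f/f, and Mx2 measured 1.98 and 3.09 CPM in FKO, against 2.62, 2.62 and 3.42 CPM in f/f. The groups overlapped in Gbp3 and both Mx genes.

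The ISG15 system gave 0 calls in 3. Isg15, a ubiquitin-like protein attached to other proteins, measured 3.60 and 3.45 CPM in FKO, against 4.46, 2.67 and 5.89 CPM in f/f. Usp18, which removes ISG15 and restrains the type I receptor, measured 2.16 and 3.49 CPM in FKO, against 4.43, 2.31 and 4.59 CPM in f/f. The groups overlapped in both genes. Trim25, a ubiquitin ligase that activates RIG-I, measured 57.4 and 59.5 CPM in FKO, against 92.0, 68.9 and 102.8 CPM in f/f. Both FKO libraries were below all f/f libraries, with a log2 fold change of −0.59 ± 0.19 (edgeR adjusted p = 0.064). Trim25 passed in 5 of 14 alternatives, with the lowest adjusted p without f/f replicate 2 (edgeR adjusted p = 0.0249). It did not pass in the others, among them the fit without f/f replicate 3 (edgeR adjusted p = 0.101).

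The PARP9 and DTX3L group of 3 genes held 2 of the 4 rises, against 11.9% of all genes tested called higher. DTX3L is a ubiquitin ligase that works as a pair with PARP9, an ADP-ribosyltransferase family member. Dtx3l (chr16:35926515-35939027, mm10) measured 77.8 and 96.5 CPM in FKO, against 50.8, 45.3 and 36.7 CPM in f/f. Its mean was 87.1 ± 13.2 CPM in FKO (SD, n = 2) and 44.2 ± 7.10 CPM in f/f (SD, n = 3), a 1.97-fold rise by the fit (log2 fold change 0.98 ± 0.18, edgeR adjusted p = 0.0114). Each FKO library exceeded every f/f library. The call ended without FKO replicate 2 (edgeR adjusted p = 0.0962) and held in the other alternatives, where the lowest adjusted p was 4.77e-05.

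Parp9 (chr16:35938470-35972621, mm10) measured 118 and 122 CPM in FKO, against 89.7, 82.8 and 74.4 CPM in f/f. Its mean was 120.4 ± 2.85 CPM in FKO (SD, n = 2) and 82.3 ± 7.66 CPM in f/f (SD, n = 3), a 1.46-fold rise by the fit (log2 fold change 0.55 ± 0.14, edgeR adjusted p = 0.0305). The groups were apart, but the call was less stable than that of Dtx3l. It ended in 7 of 15 alternatives, among them those without FKO replicate 1 (edgeR adjusted p = 0.176), without FKO replicate 2 (0.2) and without f/f replicate 2 (0.0588). Over the 15, its adjusted p ranged from 0.00369 to 0.2.

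Parp9 and Dtx3l start beside each other and share 558 bases in the coordinates of the table, so counts there can be assigned to either. Summed, the pair measured 196 and 219 CPM in FKO, against 140.5, 128 and 111 CPM in f/f (log2 fold change 0.71 ± 0.15, edgeR adjusted p = 0.0177). The sum is counted among the alternatives of both genes, though it is neither gene's own value and was added after seeing the data. Parp14, a larger family member, measured 44.8 and 49.2 CPM in FKO, against 45.8, 39.1 and 50.6 CPM in f/f, and its groups overlapped.

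Among the 8 other effectors, Ifi35 rose and Ifi27 fell. Ifi35, a leucine zipper protein induced by interferon (chr11:101448412-101458701, mm10), measured 33.5 and 38.3 CPM in FKO, against 19.9, 20.3 and 27.7 CPM in f/f. Its mean was 35.9 ± 3.36 CPM in FKO (SD, n = 2) and 22.6 ± 4.36 CPM in f/f (SD, n = 3), a 1.59-fold rise by the fit (log2 fold change 0.67 ± 0.18, edgeR adjusted p = 0.0386). The groups did not overlap, and f/f replicate 3 came nearest to FKO. The call ended in 7 of 14 alternatives, with adjusted p over all of them from 0.00948 to 0.225. Among these were the fits without FKO replicate 1 (edgeR adjusted p = 0.131), FKO replicate 2 (0.225), f/f replicate 1 (0.0788) and f/f replicate 2 (0.0936).

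Ifi27, a small hydrophobic protein (chr12:103434189-103440245, mm10), measured 199.8 and 207 CPM in FKO, against 395, 431 and 332 CPM in f/f. Its mean was 203 ± 5.03 CPM in FKO (SD, n = 2) and 386 ± 50.3 CPM in f/f (SD, n = 3), 1.90-fold lower in FKO by the fit (log2 fold change −0.92 ± 0.17, edgeR adjusted p = 0.01). Here f/f replicate 3 was the lowest of its group and still above both FKO libraries. Without FKO replicate 1 (edgeR adjusted p = 0.0995) or FKO replicate 2 (edgeR adjusted p = 0.0825) the call ended. Across the alternatives, edgeR and the other tools gave it adjusted p between 3.89e-06 and 0.0995.

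Its neighbour and relative Ifi27l2a lay on the other side of 0. Ifi27l2a measured 3473 and 2887 CPM in FKO, against 1690 CPM, 754 CPM and 2001 CPM in f/f. Both FKO libraries were above every f/f library, but f/f replicate 2 was far below its group mates and the log2 fold change of 1.10 ± 0.38 did not pass (edgeR adjusted p = 0.0732). DESeq2 put it past the threshold (adjusted p = 0.0102), and its adjusted p ranged from 0.00801 to 0.265 over the alternatives. The transcripts of the 2 genes overlap only through a longer Ifi27l2a transcript that held between 0.231% and 0.383% of the Ifi27l2a counts. The shorter one starts 1920 bases past the end of Ifi27.

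The remaining effectors did not pass. Rsad2, the antiviral enzyme viperin, measured 9.33 and 15.7 CPM in FKO, against 6.72, 7.25 and 13.0 CPM in f/f. Bst2, the tetherin that holds virus particles at the cell surface, measured 20.3 and 18.9 CPM in FKO, against 25.0, 22.5 and 44.2 CPM in f/f. Eif2ak2, the RNA-activated kinase PKR, measured 23.5 and 28.9 CPM in FKO, against 24.4, 26.1 and 27.9 CPM in f/f. The groups overlapped in Rsad2 and Eif2ak2. In Bst2 both FKO libraries lay below f/f, and f/f replicate 3 stood far above the other libraries (log2 fold change −0.64 ± 0.30, edgeR adjusted p = 0.151). Ifi44 measured 1.40 and 0.974 CPM in FKO, against 1.37, 1.11 and 2.998 CPM in f/f, and Xaf1, a protein that promotes cell death, measured 6.85 and 6.82 CPM in FKO, against 5.01, 5.75 and 9.37 CPM in f/f. Both overlapped between groups.

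The f/f libraries differed among themselves over these genes. Replicate 3 was the highest f/f library in 30 of 35 members, against 36.8% of all genes tested, and the highest of all 5 libraries in 24, against 27.2%. Its median level was 0.41 above that of its group mates on the log2(CPM + 0.1) scale, against 0.01 over all genes. The gap to the mean of f/f replicates 1 and 2 was 3.58-fold in Oas3, 2.53-fold in Oasl1, 2.42-fold in Ifi44, 2.17-fold in Oas1a and 1.98-fold in Oasl2. The same library had the largest summed macrophage (2320 CPM), progenitor and fibroblast (1333 CPM) and endothelial markers (809 CPM). Its sums of plasmacytoid dendritic (133 CPM, a list that includes the member Bst2) and neutrophil markers (9.35 CPM) were also the largest. For T, NK and B cell markers its sum was 36.7 CPM, against 35.7 CPM in f/f replicate 1. Its sums of adipocyte, mesothelial and epididymal epithelium markers (56708, 99.8 and 1.61 CPM) were not the largest. The part of any of these cells in the member levels was not tested. Gbp7, Dtx3l and Parp9 went the other way, with their lowest values in f/f replicate 3.

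Without f/f replicate 3 edgeR called the same 4 members higher (11.2% of 14138 genes were called higher) and the same 2 lower (11.8% of these genes). The median log2 fold change of the members was then −0.05, against −0.19 with all 5 libraries. The calls thus did not rest on that library. The member median also moved when other libraries were left out, to −0.07 without FKO replicate 1 and −0.33 without f/f replicate 2. It was −0.27 without FKO replicate 2 and −0.22 without f/f replicate 1. Among the FKO libraries, replicate 1 was the lowest of all 5 in 12 members, against 22.7% of all genes, and replicate 2 in 8, against 20.8%, so 8 of 35 is near the background.

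**Figure D3:**
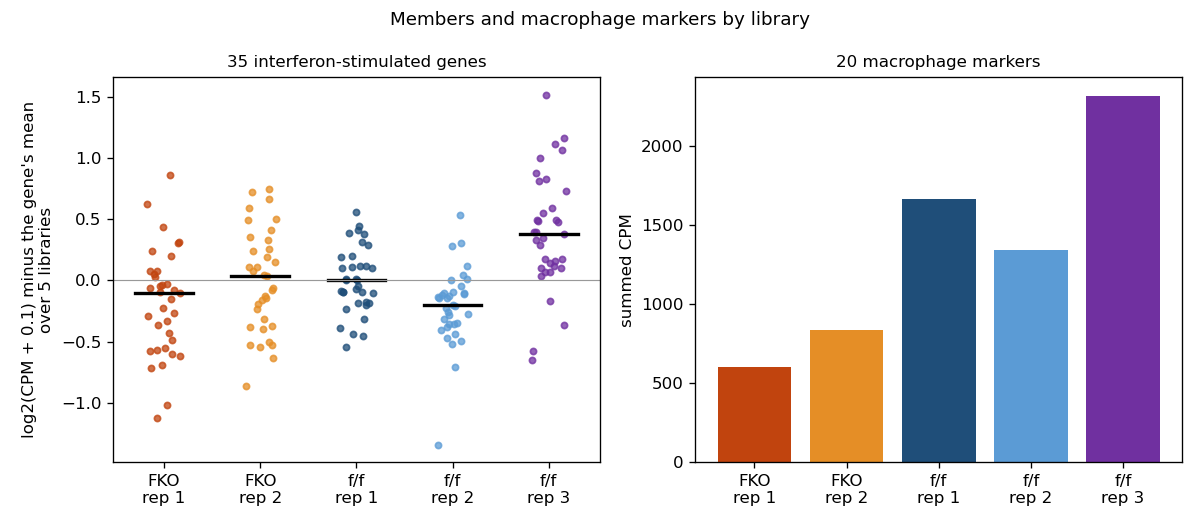
Left, log2(CPM + 0.1) of each of the 35 interferon-stimulated genes minus its mean over the 5 libraries, with a bar at each library's median. Right, summed CPM of 20 macrophage markers per library. The member median is highest in f/f replicate 3 (0.38) and lowest in f/f replicate 2 (−0.20), and the marker sums are 604 and 837 CPM in FKO, against 1666, 1343 and 2320 CPM in f/f.

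Levels are comparable between genes only per length, as FPKM (fragments relative to transcript length and library size). Ifi27l2a was far above the other members, with a mean of 6149 FPKM in FKO and 3374 FPKM in f/f. Ifi27 came second, with 186 FPKM in FKO and 411 FPKM in f/f, followed by Irf1, with 80.4 FPKM in FKO and 113 FPKM in f/f. Mean levels of at least 10 FPKM were reached by 8 members in FKO and 9 in f/f, and 6 members in FKO and 3 in f/f were under 1 FPKM. Among classical type I targets, Isg15 ranked 20 of 35 in FKO and 17 in f/f, Mx1 ranked 34 in both groups, and Oas3 was the lowest (0.0621 FPKM in FKO and 0.193 FPKM in f/f). Dtx3l ranked 8 of 35 in FKO and 12 in f/f, and Gbp7 ranked 12 in FKO and 20 in f/f.

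The interferons themselves were at or near 0. None of the 21 ligand genes had a count in either FKO library, which allows up to 3 counts per library for each. In f/f the 21 genes together had 3, 7 and 9 counts, and 16 of them had none in any library. Of 10 genes for receptors, kinases and Stat3, 0 rose, against 11.9% of all genes, and 1 fell, against 13.4%, with a median log2 fold change of 0.05. Ifngr1, a chain of the interferon gamma receptor, fell, measuring 106 and 111 CPM in FKO, against 175, 231 and 147 CPM in f/f (log2 fold change −0.76 ± 0.21, edgeR adjusted p = 0.038). The smallest p among the others of this list belonged to Jak2, at 0.32 ± 0.13 (edgeR adjusted p = 0.107), Ifngr2, at −0.18 ± 0.13 (edgeR adjusted p = 0.35), and Ifnar1, a chain of the type I receptor, at 0.23 ± 0.18 (edgeR adjusted p = 0.371), none of which passed. The Ifngr1 call ended without f/f replicate 1 (edgeR adjusted p = 0.0633) or f/f replicate 2 (edgeR adjusted p = 0.0514), as well as without either FKO library, where it reached 0.213.

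Of 21 tested genes that interferon gamma induces, 9 rose, against 11.9% of all genes, with 1 fall and a median log2 fold change of 0.37. The list was chosen with earlier results of these data known, so this share is a description only. Gbp11, a further guanylate-binding protein, measured 14.1 and 20.7 CPM in FKO, against 4.55, 3.89 and 3.58 CPM in f/f (log2 fold change 2.12 ± 0.22, edgeR adjusted p = 0.00194). Cxcl9, a T cell attracting chemokine, measured 138 and 142 CPM in FKO, against 58.1, 46.1 and 47.8 CPM in f/f (log2 fold change 1.46 ± 0.15, edgeR adjusted p = 0.00194). In both genes the groups lay far apart for their spread. Igtp and Irgm2, immunity-related GTPases, rose by log2 fold changes of 1.33 ± 0.15 (edgeR adjusted p = 0.00259) and 1.47 ± 0.18 (edgeR adjusted p = 0.00298). Gbp6, Gbp10, Cxcl11, Nlrc5 and Socs1 also rose, and Ciita, the activator of MHC class II genes, fell. Ifng had 0 counts in both FKO libraries, against 0, 2 and 0 counts in f/f, too few to compare. The summed markers of T, NK and B cells were 13.4 and 23.0 CPM in FKO, against 35.7, 31.5 and 36.7 CPM in f/f. Only 10 of the 23 genes of this list had a promoter window. Of these, 9 held the core of the interferon-stimulated response element (90%) and 5 the gamma-activated site (50%). The shares were 3.99% and 9.55% over all genes in the promoter table. Among 46 other type I interferon targets with a window they were 50% and 8.7%.

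A further 51 type I interferon targets outside the 35 gave 7 rises, against 11.9% of all genes, and 9 falls, against 13.4%, both near these backgrounds, with a median log2 fold change of −0.38. Cd274, which encodes the checkpoint ligand PD-L1, rose most clearly, with 97.0 and 124 CPM in FKO, against 15.7, 20.7 and 19.6 CPM in f/f, a 5.90-fold rise by the fit (log2 fold change 2.56 ± 0.18, edgeR adjusted p = 0.000832). Parp10, a relative of Parp9, measured 75.9 and 75.6 CPM in FKO, against 22.5, 22.8 and 31.7 CPM in f/f (log2 fold change 1.56 ± 0.18, edgeR adjusted p = 0.00272). Lgals3bp, a secreted glycoprotein, measured 465 and 489 CPM in FKO, against 245, 231 and 275 CPM in f/f (log2 fold change 0.93 ± 0.15, edgeR adjusted p = 0.00662). All 3 had their FKO libraries above every f/f library. Slfn2, a Schlafen family gene of immune cells, fell, with 15.1 and 20.7 CPM in FKO, against 47.7, 34.7 and 68.5 CPM in f/f (log2 fold change −1.49 ± 0.31, edgeR adjusted p = 0.015). Its highest library was f/f replicate 3, which also had the largest summed macrophage (2320 CPM), progenitor and fibroblast (1333 CPM) and endothelial markers (809 CPM). The part of these cells was not tested. The Slfn2 call ended without FKO replicate 1 (edgeR adjusted p = 0.106) or FKO replicate 2 (edgeR adjusted p = 0.0547).

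**Figure D4:**
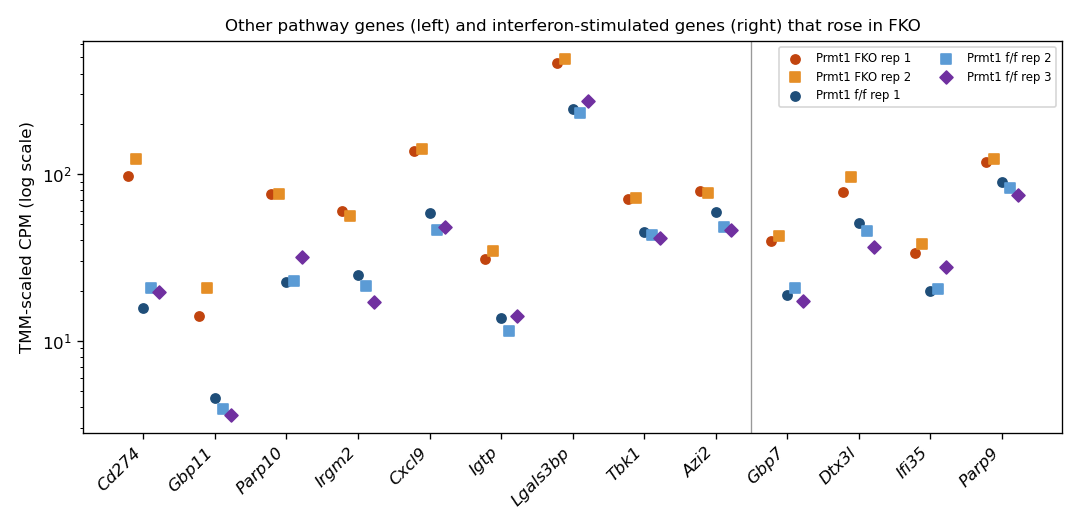
TMM-scaled CPM (log axis) per library of 9 other pathway genes that rose in FKO, left of the line, and of the 4 interferon-stimulated genes that rose, right of it. In each of the 13 genes both FKO points lie above the 3 f/f points, by 5.90-fold on the fitted scale in Cd274 and by 1.46-fold in Parp9.

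Of 16 genes that act as brakes on the pathway, 1 rose, against 11.9% of all genes, and 6 fell, against 13.4%. The median log2 fold change was −0.49. The rise was Socs1, which blocks JAK kinases and is also in the interferon gamma list. The brakes too were listed with earlier results of these data known. Rnaseh2c and Rnaseh2a, subunits of the nuclease that removes RNA from DNA, fell by 1.09 ± 0.20 (edgeR adjusted p = 0.0102) and 0.72 ± 0.17 (edgeR adjusted p = 0.0224) on the log2 scale. The remaining subunit, Rnaseh2b, lay on the other side of 0, with both FKO libraries above all f/f libraries. Its log2 fold change of 0.40 ± 0.22 did not pass (edgeR adjusted p = 0.215). Irf2bp2, a corepressor of IRF2, fell by 0.71 ± 0.16 (edgeR adjusted p = 0.021). Adar, which edits double-stranded RNA so that MDA5 does not detect it, fell by 0.58 ± 0.13 (edgeR adjusted p = 0.0222). Trex1 and Samhd1, which degrade DNA and deoxynucleotides, were the other falls. Of the genes upstream that sense nucleic acid or relay the signal, 2 of 21 rose, against 11.9% of all genes, and 4 fell, against 13.4%, with a median log2 fold change of −0.22.

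Tbk1, the kinase that activates IRF3, measured 71.1 and 72.3 CPM in FKO, against 45.1, 43.1 and 41.1 CPM in f/f (log2 fold change 0.73 ± 0.13, edgeR adjusted p = 0.00924). Its adaptor Azi2 had a log2 fold change of 0.62 ± 0.15 (edgeR adjusted p = 0.0282). The falls were Tlr7, an RNA sensor of endosomes, at −0.93 ± 0.22 (edgeR adjusted p = 0.0235), Irf8, a factor of myeloid cells, at −0.68 ± 0.18 (edgeR adjusted p = 0.0353), Tlr9 and Irf5. These 4 are expressed in myeloid cells, whose macrophage markers were lower in FKO (12 of 19), and the part of these cells was not tested. Of 17 called pathway genes given here for their small p within a list, other than the 35 members, 6 kept their call in all 14 alternatives: Cd274, Parp10, Gbp11, Cxcl9, Igtp and Irgm2. For the other 11 the call ended without 1 FKO library or either of them, and 0 of the 17 changed direction. Azi2 and Irf8 lost their call in 5 of 14 alternatives each. For Azi2 these included library size alone, FPKM and the fit without f/f replicate 2. For Irf8 they included the replicate block and the fits without f/f replicate 2 or 3. Ifngr1 also lost its call without f/f replicate 1 or 2, as given above.

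**Figure D5:**
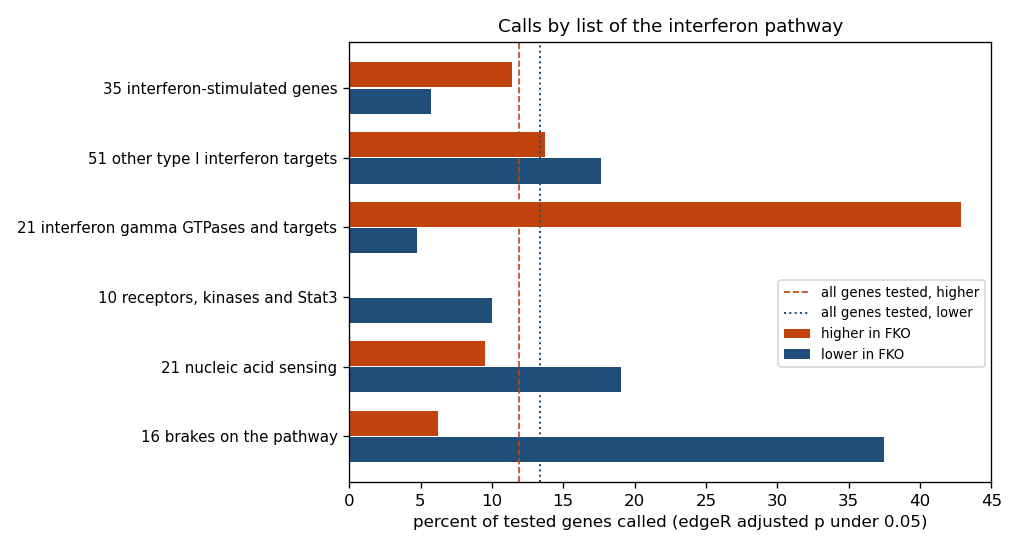
Percent of tested genes called higher or lower in FKO (edgeR adjusted p under 0.05) for the interferon-stimulated genes and 5 other lists of the pathway, with dashed and dotted lines at 11.9% and 13.4%, the shares over all genes tested. The 35 members lie at or below both lines (11.4% and 5.71%). Of 21 interferon gamma genes 9 were higher, and of 16 brakes 6 were lower. All lists were chosen with earlier results of these data known.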

How the data were processed

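The authors deposited 1 table of 36780 rows with 2 kinds of value per sample. Estimated counts, 1 of the deposited kinds, are whole numbers for each RefSeq transcript, unscaled, per the file headers. FPKM, the other kind that the authors deposited, relates fragments to transcript length and library size and served for levels between genes and 1 alternative. The submitters' processing notes name HISAT2 2.1.0, HISAT, Bowtie2, StringTie 1.3.4d and mm10, with no role or order. Per the labels' protocols, libraries were TruSeq poly-A preparations read on a HiSeq4000.

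The 1 row that names no gene was left out, leaving 36779 transcripts of 24531 genes, and 0 columns of sample values were unused. Estimated counts were rounded and summed per gene identifier. Genes were tested in R 4.3.3 with edgeR 4.0.16 (quasi-likelihood, genotype alone, all 5 libraries, TMM factors, filterByExpr), which left 14492 genes, with Benjamini-Hochberg adjustment over all of them and calls at 0.05. TMM factors were 0.9004 and 0.9215 in FKO and 1.035, 1.036 and 1.123 in f/f. No list was tested as a set. CPM and the fold changes (FKO over f/f) are TMM-scaled. The gene test was tried on simulated data.

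The members and lists were chosen with earlier results of these data known. All 35 members are reported, with Prmt1 and up to 4 genes of smallest p per other pathway list. Rnaseh2b is given in addition, beside the other subunits of its nuclease. 1 gene of the pathway is not reported here and was left out of the lists. Calls in those lists that are named without values, and the ratios of f/f replicate 3, were picked after their values were seen. Overlaps between genes were taken from transcript coordinates of the table, with no use of strand, since the counting is not stated to use it. Promoter windows are RefSeq's (GRCm38.p6). Limits from counts of 0 cover counting error only. Alternatives were RLE and upper-quartile factors, library size alone, no filter, a stricter filter (10 mean counts and 1 CPM in 2 libraries), a replicate block, DESeq2 1.42.0, limma 3.58.1 with voom, limma on log2(FPKM + 0.1), each library left out and, added after seeing the data, 3 pairs of genes summed.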

Additional observations from a re-analysis of the deposited data

How the results depend on the processing

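Of 493 values of the 35 members under the alternatives, 415 kept their direction and side of the threshold, 19 lost their call, 17 gained one and 42 changed sign. The sums of gene pairs are counted among these values, under each member that is in a pair. Members that rose numbered 2 with upper-quartile factors, library size alone and FPKM, and members that fell 4 in each of these and 6 with DESeq2. With each library left out in turn, 1 to 4 members rose and 0 to 5 fell, and 909 to 3449 genes were called over all genes, against 3674 with all libraries. The cause was not tested, except that these fits hold fewer libraries. The member median ranged from −0.42 to −0.05. Deviations from the group means correlated at 0.0657 for replicate number 1 and −0.0812 for number 2. With 2 FKO libraries these deviations mirror each other, so the check cannot decide whether replicate numbers pair the samples. With the replicate block 5 members rose, 2 fell and 3278 genes were called. Ifi27l2a (log2 fold change 1.49, edgeR adjusted p = 0.00801) and Rsad2 (0.80, edgeR adjusted p = 0.0431) were gained. Parp9 was lost (edgeR adjusted p = 0.0679). The stricter filter gave no value for Oas3.

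The sign changes were in 12 members, none called either way. With upper-quartile factors Ddx58 was −0.047, Gbp3 −0.12, Parp14 −0.072, Eif2ak2 −0.12 and Xaf1 −0.11. With library size alone Ddx58 was −0.15, Stat2 −0.0051, Ifit3 −0.086, Gbp3 −0.22, Parp14 −0.17, Eif2ak2 −0.22 and Xaf1 −0.22. With FPKM Ddx58 was −0.13, Ifit3 −0.085, Gbp3 −0.21, Parp14 −0.15, Eif2ak2 −0.22 and Xaf1 −0.16. Zbp1 was 0.0035 with RLE factors and 0.25 with the replicate block, under which Ifit1 was 0.10 and Isg15 0.027. Eif2ak2 was −0.00089 without a filter, −0.013 with the stricter one and −0.0033 with voom, and Gbp3 was −0.012 with the stricter filter. With each library left out in turn, 9 members took both signs, over ranges of −0.39 to 0.29 in Zbp1, −0.73 to 0.31 in Ifit1, −0.043 to 0.31 in Ifit3, −1.64 to 0.25 in Mx1, −0.54 to 0.098 in Mx2, −0.068 to 0.10 in Gbp3, −0.040 to 0.14 in Parp14, −0.15 to 0.15 in Eif2ak2 and −0.13 to 0.34 in Xaf1.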
